A study of Homo sapiens with 2 samples.

Results

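Cytokinesis is the physical division of a cell after its chromosomes have separated, and 8 genes of this process, ANLN, ECT2, RACGAP1, PRC1, CIT, CEP55, RHOA and SHCBP1, were followed on DNA microarrays after knockdown of periostin in lung fibroblasts. They were listed by name, with earlier results of these data known. Each was found through the RefSeq accession that the arrays give for a probe. All 8 were among the 16052 genes measured, out of 21743 named genes. The 8 genes were covered by 10 probes and 19 spots, since one CEP55 probe was printed 10 times. The cells were MRC-5, a fibroblast line derived from human fetal lung. One culture received control siRNA and one received siRNA against periostin (POSTN), both at 10 nM for 48 h, and the RNA of each was hybridized to 1 single-colour Agilent array. With 1 array per condition no replicate culture existed, the conditions could not be tested against each other, and every difference below compares those 2 arrays. The comparison asks which of these genes were expressed differently when periostin was lowered.

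At the end of mitosis the small GTPase RHOA is switched on beneath the membrane at the cell equator and drives assembly of the ring of actin and myosin that pinches the cell. The switch is thrown by ECT2, a guanine nucleotide exchange factor, which is recruited to the central spindle by RACGAP1, a GTPase-activating protein. PRC1 bundles the antiparallel microtubules of that spindle, ANLN (anillin) ties RHOA, actin, myosin and septins together in the ring, CIT (citron kinase) and SHCBP1 act at the midbody that is left once the ring has closed, and CEP55 recruits the machinery that makes the final cut. Several of these genes are known to be transcribed mostly from G2 to mitosis, so that their RNA is abundant only in dividing cells, whereas RHOA is used throughout the cell cycle for the actin cytoskeleton.

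The promoters are shown because many genes of G2 and mitosis carry near their start a TTTGAA element, known as the CHR and bound by MuvB complexes, and one or more CCAAT boxes, bound by NF-Y. RefSeq promoter windows on GRCh38.p14, from 250 bases before to 50 bases after each start, were at hand for 7 of the 8 genes, and RACGAP1 was not among them. Below, each stretch runs 5′ to 3′ on the strand of its gene and positions count from 1 at the first transcribed base, with -1 the base before it. Capitals mark TTTGAA and CCAAT in either orientation, so that a reversed TTTGAA reads TTCAAA. For PRC1, on the minus strand at chr15:90994536-90994655, and for ECT2, on the plus strand at chr3:172750606-172750725, the 120 bases before the start are given, and the same stretch of RHOA, on the minus strand at chr3:49411977-49412096, is set beside them as a window with no TTTGAA.
PRC1: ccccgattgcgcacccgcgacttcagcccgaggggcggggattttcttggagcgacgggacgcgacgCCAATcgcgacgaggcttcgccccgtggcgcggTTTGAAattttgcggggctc
ECT2: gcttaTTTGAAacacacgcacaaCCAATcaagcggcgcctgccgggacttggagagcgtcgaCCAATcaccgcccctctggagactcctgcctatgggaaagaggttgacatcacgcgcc
RHOA: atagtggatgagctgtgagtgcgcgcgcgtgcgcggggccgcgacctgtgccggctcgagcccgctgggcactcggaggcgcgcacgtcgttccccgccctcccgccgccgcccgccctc

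For the other 4 genes the 30 bases around the TTTGAA nearest to the start are given, for ANLN at chr7:36389830-36389859 on the plus strand, CEP55 at chr10:93496597-93496626 on the plus strand, SHCBP1 at chr16:46621348-46621377 on the minus strand and CIT at chr12:119877293-119877322 on the minus strand.
ANLN: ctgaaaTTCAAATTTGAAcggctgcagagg
CEP55: gcagccgcgggaTTCAAActcccggaagcg
SHCBP1: cgtccgcggaaaTTTGAAatggctgacggg
CIT: ccgttcctcgggTTCAAAcgcggcggcggg

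TTTGAA, read on both strands, was found in 7 of the 8 windows of these genes, and in 15.2% of all 35116 windows of the same length in the table. ECT2 has 2 overlapping windows, both with TTTGAA, and the other genes have 1 each, so that 6 of the 7 genes held it. It lay at -20 to -15 in both PRC1 and ANLN, and in ANLN a reversed copy at -26 to -21 abutted it. It lay across the start in CEP55, at -3 to 3, and just after it in CIT, at 11 to 16, and in SHCBP1, at 15 to 20. In the window of ECT2 that is shown it lay at -115 to -110 and again at 35 to 40. A further reversed copy lay at -116 to -111 in CEP55 and at -208 to -203 in CIT. CCAAT, also read on both strands, was found in 6 of the 8 windows, 1 for each of 6 genes, and in 34.6% of all windows. PRC1 had it at -53 to -49, ECT2 at -97 to -93 and at -58 to -54, with one more match across the start, and CEP55 at -102 to -98, while ANLN had none. SHCBP1 had it at -189 to -185 and reversed at -68 to -64. CIT had it at -213 to -209 and reversed at -127 to -123 and at -34 to -30. The RHOA window held a reversed CCAAT at -166 to -162, outside the stretch shown, and no TTTGAA. No match of one motif overlapped a match of the other. Such a match is a string of letters and no proof of a bound site, and a window without one says nothing about the factor.

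Signals were scaled so that their 75th percentile, over the 58717 spots that are not controls, was the same, 377, on both arrays, and are in arbitrary units that cannot be compared between genes. Of these spots 58.0% were well above background with control siRNA and 58.9% with periostin siRNA, by the flag of the scanner software, and none was saturated. POSTN, the target, went from 2638 to 280, which on the log2 scale is a ratio of -3.24 ± 0.20 (propagated spot error), periostin siRNA over control siRNA as throughout. All 11 lung fibroblast markers on the list, COL1A1, COL1A2 and VIM among them, were well above background on both arrays, with log2 ratios from -0.90 for PDGFRA to 0.83 for LUM. Some markers of other cell types also gave signals well above background. Of 8 epithelial markers 6 were measured, with a summed signal of 4084 with control siRNA and 6126 with periostin siRNA, and EPCAM went from 34.6 to 135, while CDH1 and SFTPB were not well above background on either array. Of 8 immune markers 5 were measured, with sums of 1843 and 3044, and HLA-DRA and MS4A1 were not well above background. For LYZ no probe was named through its accession. Of 6 endothelial markers 5 were measured, with sums of 5622 and 5333, and PECAM1 was not well above background. Each sum rests mostly on its brightest genes, which makes it no measure of cells. TEK alone gave 5457 and 5175, KRT18 3048 and 4264, and CD68 1528 and 2451. Neither the presence of such cells nor their part in the ratios below was tested.

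All 8 cytokinesis genes had a lower signal with periostin siRNA than with control siRNA, but by very unequal amounts. PRC1, ANLN, CEP55 and SHCBP1 were lower by more than 10-fold, RACGAP1 and ECT2 by between 2-fold and 3-fold, and RHOA and CIT by less than 1.4-fold. With the 3-fold threshold of the study, 4 of the 8 were lower and none was higher, against 2.75% lower and 3.37% higher among all 16052 genes measured. At 2-fold, 6 of the 8 were lower and none higher, against 6.42% and 7.97% of all genes. At 4-fold, the same 4 of the 8 were lower and none higher, against 1.71% and 1.73%. The median log2 ratio of the 8 genes was -2.51, and that of all genes measured was 0.06. RNA of a whole culture was measured, so fewer dividing cells and less RNA per cell cannot be told apart. The errors that follow are SDs where a probe has 10 spots, and otherwise the error that the scanner software propagated for the spot. The propagated error was nearly the same for bright probes, 0.204 for both RHOA and CIT, and is no spread measured for a gene. Neither error takes in how much cultures differ.

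**Figure D1:**
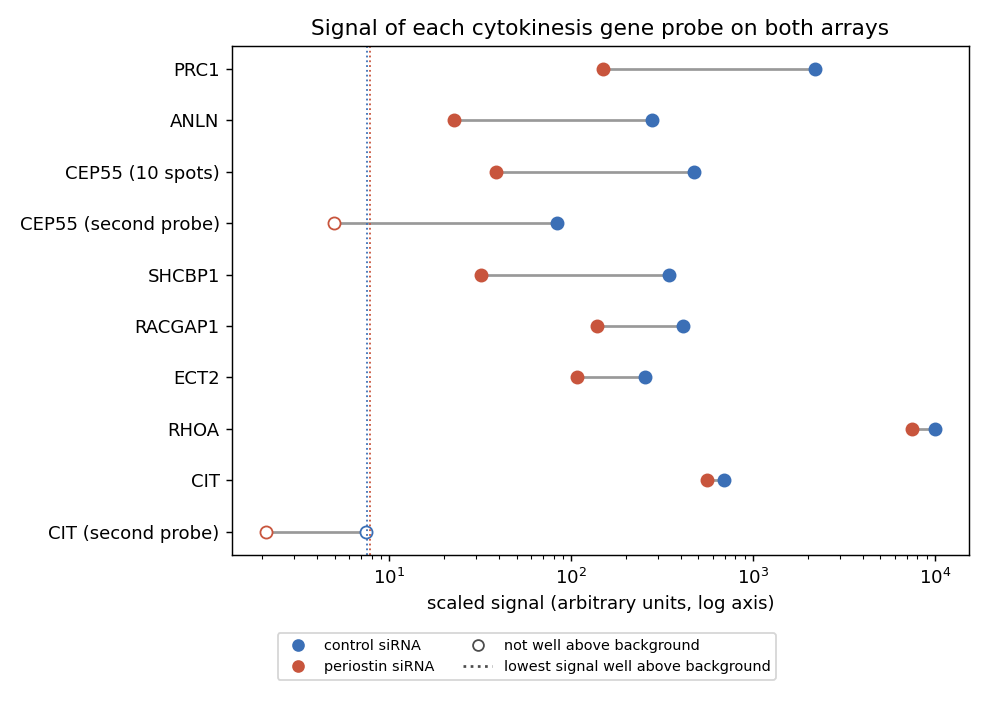
Scaled signal of each probe of the 8 genes (log axis, arbitrary units) with control siRNA (blue) and periostin siRNA (red), the genes ordered from the lowest log2 ratio down; open points were not well above background, and dotted lines mark the lowest signal well above background on each array. PRC1 goes from 2186 to 149, whereas the 2 points of RHOA, 10022 and 7447, lie close together.

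PRC1, the bundler of the central spindle, had the lowest ratio of the 8 genes. Its signal was 2186 with control siRNA against 149 with periostin siRNA. The log2 ratio was -3.87 ± 0.20, so that 6.83% of the control signal was left, and only 36 of the 16052 genes had a lower ratio. Genes not well above background with periostin siRNA entered this rank with a bound, so more of them may have been lower. Both signals were far above the floor of the arrays: the lowest signal well above background was 7.55 on one array (control siRNA) and 7.77 on the other. The median pixel of the PRC1 spot was 1936 with control siRNA against 174 with periostin siRNA, where the negative control spots had a median of 29 on both arrays.

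ANLN, the scaffold of the contractile ring, came next. Its signal was 279 with control siRNA against 22.6 with periostin siRNA. This is a log2 ratio of -3.63 ± 0.23, or 12.4-fold. The spot still counted as well above background with periostin siRNA, but its median pixel there was 55, not far above the 29 of the negative controls, against 343 with control siRNA. The size of the ANLN ratio depended on how background was removed, and under the normexp correction, which fits the background by a model and then raises all signals by 50, it was -2.16.

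CEP55, the recruiter of the abscission machinery, is the one gene of the 8 with repeated spots. Over its 10 spots the signal with control siRNA ran from 452 to 498 with a median of 476, and with periostin siRNA from 31.7 to 43.8 with a median of 39.3. The spots of the 2 arrays did not overlap, and all 10 were lower with periostin siRNA. The log2 ratio was -3.61 ± 0.16 (SD over 10 spots), with single spots between -3.85 and -3.37. Of the 10 spots 3 carried an outlier flag on the periostin siRNA array, the lowest among them, and without these 3 the ratio was again -3.61. A second CEP55 probe, printed once, read 83.2 with control siRNA and 4.97 with periostin siRNA. The latter was not well above background, so the second probe gives only a bound, and by it CEP55 was at least 10.7-fold lower, beside 12.2-fold by the first. Under normexp the log2 ratio of the first probe was -2.40.

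**Figure D2:**
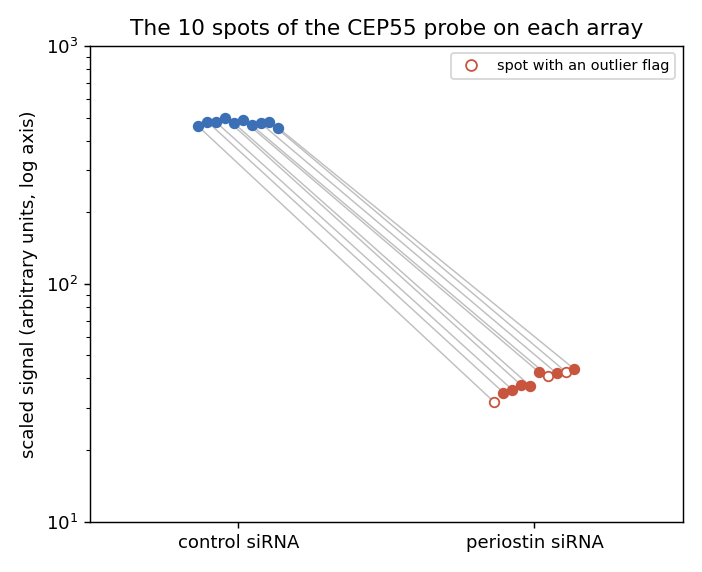
Scaled signal (log axis, arbitrary units) of the 10 spots of the CEP55 probe on each array, each line joining the same spot; open points carry an outlier flag. The spots lie between 452 and 498 with control siRNA and between 31.7 and 43.8 with periostin siRNA.

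SHCBP1, a partner of RACGAP1 at the midbody, was the remaining gene past 3-fold. Its signal went from 344 to 31.8, a log2 ratio of -3.43 ± 0.22, or 10.8-fold. As for ANLN, the spot was dim with periostin siRNA, with a median pixel of 62, and under normexp the ratio was -2.24.

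The regulators of RHOA had ratios nearer to 0. RACGAP1 went from 411 with control siRNA to 138 with periostin siRNA, a log2 ratio of -1.58 ± 0.20. This is 2.98-fold, just short of the 3-fold threshold, and scaling on the median, quantile normalization and loess carried it past, with ratios of -1.71, -1.59 and -1.62. ECT2, the exchange factor that RACGAP1 recruits, went from 255 to 108, a log2 ratio of -1.24 ± 0.21 or 2.35-fold. It was below 3-fold under every setting tried. Only 4.41% of all genes measured had a ratio as low as that of ECT2.

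RHOA itself was bright on both arrays, with 10022 in the control culture and 7447 after periostin siRNA. The log2 ratio was -0.43 ± 0.20, and 74.3% of the control signal was left. Of all genes 19.1% had a ratio as low. The sign was the same under every setting tried, with ratios from -0.56 to -0.38.

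CIT, citron kinase, had the ratio closest to 0 of the 8. The brighter of its probes, for the transcript NM_007174, read 688 with control siRNA and 560 with periostin siRNA. The log2 ratio was -0.30 ± 0.20, with 25.5% of all genes as low or lower. The second probe, for another transcript of the gene (NM_001206999), read 7.39 and 2.09, not well above background on either array, so that no ratio is given for it. The CIT window held TTTGAA, as did those of PRC1, ANLN, CEP55, SHCBP1 and ECT2, while the RHOA window did not. RACGAP1 had no window, and whether the motif has any part in the ratios was not tested.

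**Figure D3:**
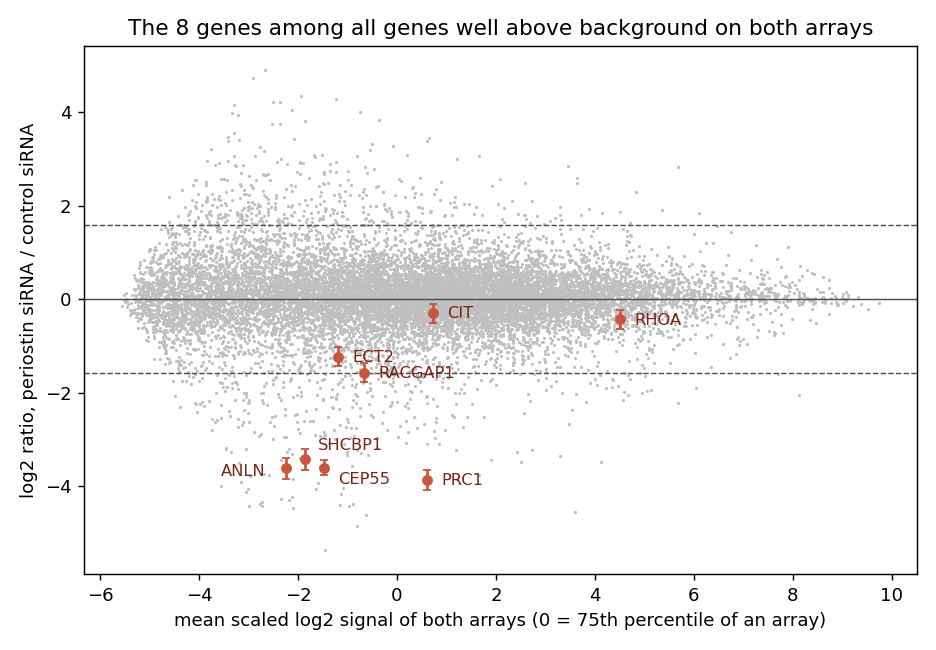
Log2 of the signal with periostin siRNA over that with control siRNA against the mean scaled log2 signal for every gene well above background on both arrays (grey, 1 point per gene) and for the 8 cytokinesis genes (red, with the SD over spots or the propagated spot error); dashed lines mark 3-fold. PRC1, ANLN, CEP55 and SHCBP1 lie between -3.87 and -3.43, at the lower edge of the cloud, and RHOA and CIT lie within it.

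Neighbours in the order of the 8 ratios were compared with their spot errors. PRC1 and ANLN differed by 0.25 ± 0.31 on the log2 scale, both errors combined. ANLN and CEP55 differed by 0.01 ± 0.28, and CEP55 and SHCBP1 by 0.18 ± 0.27. These differences were within the combined errors, which do not rank these 4. For CEP55 the error was the SD over its 10 spots, which is larger than the error of their mean. From SHCBP1 to RACGAP1 the ratio differed by 1.86 ± 0.30. RACGAP1 and ECT2 differed by 0.34 ± 0.29, which is under 2 errors. From ECT2 to RHOA the difference was 0.81 ± 0.29, and RHOA and CIT differed by 0.13 ± 0.29. Probes printed 10 times give a second measure of spot error. Over the 50 such probes nearest in brightness, the pooled SD of the log2 ratio ran from 0.05 for RHOA to 0.21 for ANLN, and was 0.10 for RACGAP1 and 0.11 for ECT2. By this smaller error RACGAP1 and ECT2 differed by 2.31 errors, and PRC1 and SHCBP1, 0.44 apart, by 2.57. Brightness was matched on the mean of both arrays, so this error can be too small where 1 array is dim. For CEP55 it was 0.12, against 0.16 over its own 10 spots. Whether PRC1 and SHCBP1 differ beyond spot error is thus not settled. The order also changed under normexp. Its offset acts most on dim probes, so the order under it cannot rank the genes. Under normexp PRC1, at -3.31, stood apart from CEP55, SHCBP1 and ANLN, at -2.40, -2.24 and -2.16, and ECT2, at -0.84, lay closer to RHOA, at -0.39.

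The proteins that work beside these 8 in the spindle midzone were read from a list of their own, also chosen with earlier results of these data known. Of 12 midzone partners 11 were measured, and for PLK1 no probe was named through its accession. Of the 11, 7 were lower past 3-fold and none higher, against 2.75% lower among all genes, with a median log2 ratio of -2.14. The count was 6 under normexp, without scaling, and with probes well above background on both arrays. The 3 lowest were mitotic kinesins. KIF20A, a kinesin of the midzone, went from 253 to 12.2, a log2 ratio of -4.38 ± 0.34 (SD over 10 spots). KIF4A, which binds PRC1, went from 254 to 12.6, or -4.34 ± 0.30. KIF14, which binds both PRC1 and CIT, went from 157 to 3.04, which was not well above background, so that it was at least 20.2-fold lower. KIF23, the kinesin that forms the centralspindlin complex with RACGAP1, went from 947 to 215, or -2.14 ± 0.20, and its second probe gave -2.60.

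In the chromosomal passenger complex, which positions the midzone, BIRC5 had a log2 ratio of -3.45 ± 0.06 (SD over 10 spots) and CDCA8 of -2.77 ± 0.20. AURKB, the kinase of the complex, had -1.62 ± 0.23, just past 3-fold, and INCENP, its scaffold, -0.71 ± 0.13 (SD over 10 spots). KIF20B gave -0.55 ± 0.21, and its dimmer second probe gave -0.96. The microtubule stabilisers CLASP1, at -0.32 ± 0.20, and CLASP2, at 0.11 ± 0.20, which also serve interphase cells, were at the top of the list, and the dim second probe of CLASP2 gave -0.40.

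The lists of ring and abscission genes, many of which cells also use outside division, had medians near 0, with a sign that changed with the processing. Scaling on the median gave -0.13 and -0.07, and no scaling gave 0.05 and 0.10. Of the 18 genes of the contractile ring all were measured and none passed 3-fold in either direction, with 9 below 0, 9 above 0 and a median of 0.00. The lowest was DIAPH3, a formin that nucleates ring actin, which went from 222 to 111, or 49.9% of control, although its second probe gave a log2 ratio of -0.15. The highest was MYL9, a myosin light chain of contractile cells, which went from 9176 to 19333, a log2 ratio of 1.08 ± 0.20. The myosin heavy chains MYH9 and MYH10 gave 0.49 ± 0.20 and 0.53 ± 0.20, but the dimmer second probe of MYH9 gave 0.12. ROCK1, a kinase that RHOA activates, gave -0.52 ± 0.20.

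Of 20 genes of the abscission machinery 19 were measured, none passed 3-fold in either direction, and the median was 0.05. PDCD6IP (ALIX) and TSG101, which bind CEP55, gave 0.06 ± 0.20 and -0.12 ± 0.20. For PDCD6IP the 2 other probes gave -0.37 and 0.58, so that its probes differed in sign. The lowest was VPS4B, an ATPase that disassembles the ESCRT filaments, at -0.95 ± 0.20, and the highest was ZFYVE19, which delays the final cut while chromatin is trapped, at 0.74 ± 0.20. CHMP4C was not well above background on either array.

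**Figure D4:**
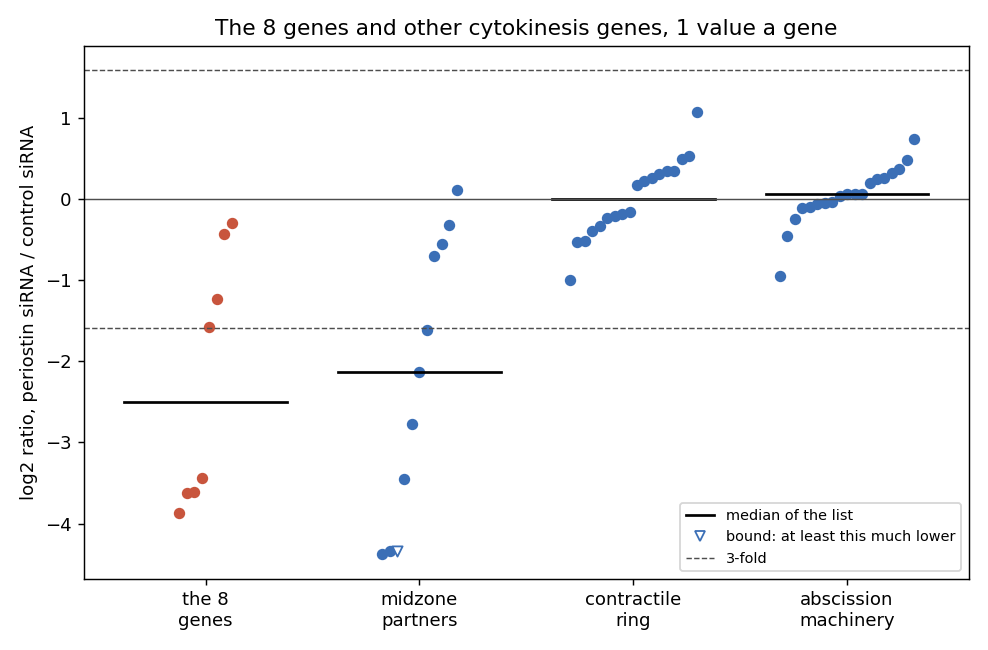
Log2 of the signal with periostin siRNA over that with control siRNA for each measured gene of 4 lists, 1 point per gene; bars mark the median of each list, the open triangle is a bound and dashed lines mark 3-fold. The medians are -2.51 for the 8 genes, -2.14 for the midzone partners, 0.00 for the contractile ring and 0.05 for the abscission machinery.

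With 2 arrays, each gene has a single log2 ratio to set beside the median of the 8. That median falls in the gap between SHCBP1 and RACGAP1, and the nearest of the 8 lies 0.93 from it, so that genes near it match none of the 8 in ratio. Among 14656 other genes that both arrays measured above background without an outlier flag, the 3 with a ratio nearest to the median of the 8 were SYT1, BLM and HAPLN1, at distances of 0.00045, 0.0025 and 0.0039 on the log2 scale, and 25 genes lay within 0.1 of that median. SYT1 went from 163 to 28.6, BLM from 86.6 to 15.3 and HAPLN1 from 539 to 94.6.

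**Figure D5:**
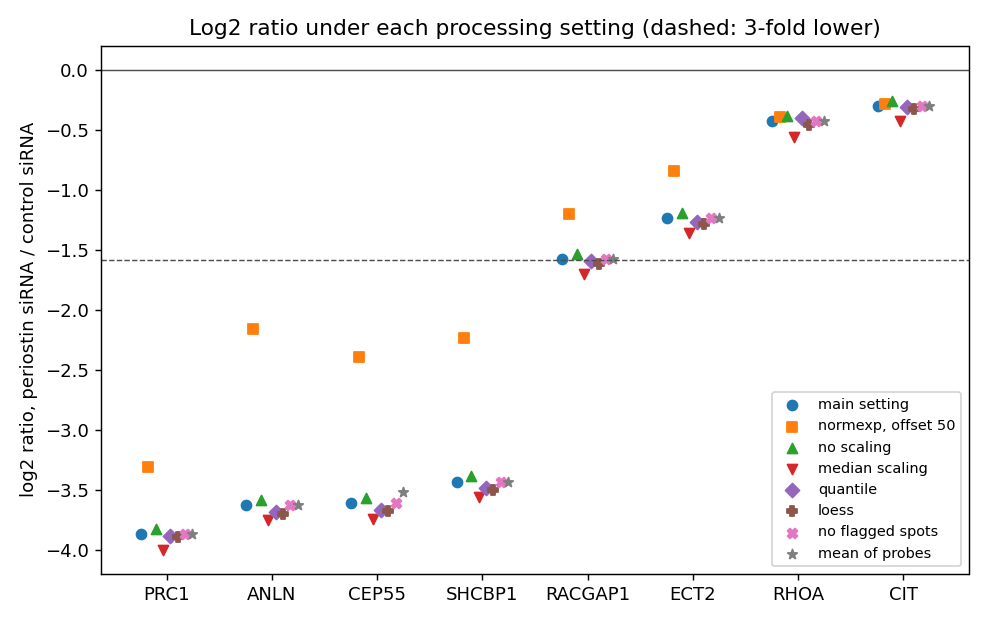
Log2 of the signal with periostin siRNA over that with control siRNA of the 8 genes under 8 ways of processing the arrays; the dashed line marks 3-fold lower. Under normexp the ratios of ANLN, CEP55 and SHCBP1 move to between -2.40 and -2.16, and PRC1 to -3.31, while RHOA and CIT hardly move.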

How the data were processed

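RNA of 2 MRC-5 cultures was measured on 1 array each. The authors deposited, for each array, its scanner output, whose intensity values Feature Extraction (11.5.1.1 per the file headers, 12.0.3.1 per the labels) had background-subtracted and detrended within each array, and a table of normalized intensity, which equals the scanner values times 3.65 (control siRNA) or 3.54 (periostin siRNA). The arrays were annotated on hg19, and RefSeq of GRCh38.p14 named the genes (65.1% of spots). Processed signals were divided by their 75th percentile on each array and put on the log2 scale. Spots of a probe were averaged, and the brightest probe stood for a gene. A probe well above background on 1 array gave a bound, with its signal on the other array raised to the floor there (the lowest signal of any probe counted well above background) where it lay under it. Python 3.11.15, numpy 2.4.6, pandas 2.3.3, and limma 3.58.1 in R 4.3.3 were used, and the steps were tested on simulated data. Both arrays were on the same slide. Genes, lists and settings were chosen with earlier results of these data known. Named were the 8 genes, POSTN, list genes past 3-fold or at the ends of a list, and the 3 genes nearest in ratio; other genes named were chosen after their values were seen. One further gene list is not reported here.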

Additional observations from a re-analysis of the deposited data

How the results depend on the processing

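No paired analysis was possible because there was 1 array per condition, and for the same reason no array was left out in turn. Each of the 8 cytokinesis genes had a log2 ratio below 0 under all 10 alternatives run for it, and 4 or 5 of them were lower past 3-fold whenever that threshold was kept, the fifth being RACGAP1. The normexp correction moved most values: the median of the 8 genes to -1.68, POSTN to -2.99, PRC1 to -3.31, RACGAP1 to -1.20 and ECT2 to -0.84. Its offset pulls dim probes towards 0 by construction. It also left 190 lower and 143 higher genes among all genes, so that higher genes made up 42.9% of those past 3-fold, where the reported setting gave 55.1% and scaling on the median 46.3%. That median scaling gave -0.07 as the median of all genes, and -2.63 for the 8 genes. At 2-fold, 1 gene of the contractile ring was lower and 1 higher, 2 epithelial markers were higher, and 1031 genes were lower and 1279 higher in all. At 4-fold, 0 epithelial markers were higher, as under normexp, and 274 genes were lower and 278 higher. Depth is not defined for arrays, and dim signals near background limit the ratios of ANLN, CEP55 and SHCBP1.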
